A study of Arabidopsis with 27 samples.

Results

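The genes described here are 10 genes of gibberellin metabolism, perception and DELLA repression, taken by their locus identifiers from the 32824 genes of the deposited table. They are the gibberellin 2-oxidases GA2OX2 (AT1G30040), GA2OX6 (AT1G02400) and GA2OX8 (AT4G21200), the gibberellin 20-oxidases GA20OX1 (AT4G25420) and GA20OX2 (AT5G51810), the gibberellin 3-oxidase GA3OX1 (AT1G15550), the receptor GID1A (AT3G05120), and the DELLA genes RGA (AT2G01570), GAI (AT1G14920) and RGL3 (AT5G17490). All 10 were found, and 6 of them (GA2OX2, GA2OX6, GID1A, RGA, GAI and RGL3) reached the mean of 1 FPKM (fragments of a gene, scaled to its transcript length and to the library total) that a gene needed to be tested. GA2OX8, GA20OX1, GA20OX2 and GA3OX1 stayed below it and are given by their levels.

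Gibberellins are diterpenoid hormones that promote leaf and stem growth. Early enzymes make the inactive precursor, GA20 oxidases and GA3 oxidases turn it into the bioactive hormone, and GA2 oxidases inactivate it. The hormone binds a GID1 receptor, and the complex then captures DELLA proteins, nuclear repressors of growth, which the F-box protein SLY1 marks for degradation. Bioactive gibberellin is known to lower the RNA of GA20 oxidases and GA3OX1 and to raise that of several GA2 oxidases, so these genes are often read as feedback markers.

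RNA was measured in systemic rosette leaves of 4-week-old Arabidopsis thaliana plants, harvested 30 min after a different, local leaf was treated. The 27 libraries form 9 groups of 3, and each library is a pool from 8 plants. The groups are 3 genotypes, the double mutants glr3.3glr3.6 (glutamate receptor-like channels) and p2k1p2k2 (receptors of extracellular ATP) and the wild type Col-0, each after eATP, L-Glu or mock buffer on the local leaf. The titles name extracellular ATP, and the treatment label gives its analogue βγmeATP at 300 µM; L-Glu was given at 100 mM. Nothing in the labels says that pools came from separate sowings, so p-values measure only the spread between these pools.

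The libraries held 21042 to 21843 genes above 0 and FPKM totals of 740955 to 822758, while the read depth is unknown. The highest total was that of Col-0 eATP replicate 3, above 786962 in the next library. GLR3.6 stood at 70.5 to 135 FPKM in the glr3.3glr3.6 libraries, against 0.827 to 1.42 FPKM in Col-0, and GLR3.3 at 5.85 to 8.05 FPKM, against 3.19 to 4.97 FPKM in Col-0. In the libraries labelled p2k1p2k2, P2K2 had 6.15 to 37.7 FPKM, against 0.351 to 0.967 FPKM in Col-0, and P2K1 had 3.44 to 10.2 FPKM, against 0.917 to 2.18 FPKM in Col-0. RNA of all 4 genes was thus higher, not lower, in the lines named for their mutation, and the lines are called by their labels throughout. Leaf identity was checked with markers: those of root, flower and shoot apex stayed at sums of at most 5.86, 0.826 and 2.03 FPKM per library. In leaf tissue of mixed cells, fewer cells of a type and less RNA per cell cannot be told apart.

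GA2OX6 was by far the most abundant of the 10 genes, and among the 5 DELLA genes RGA led. FPKM is scaled per transcript length, so levels can be set beside each other. Over the 27 libraries GA2OX6 had a mean level of 69.3 FPKM (44.1 to 97.1), RGA 29.2 FPKM (19.7 to 34.3), GAI 13.6 FPKM (6.57 to 20.3) and GA2OX2 8.80 FPKM (4.84 to 14.2). GID1A had 4.84 FPKM (2.78 to 8.33) and RGL3 1.74 FPKM (0.639 to 4.51). The listed GA20 and GA3 oxidases, which make the hormone, and the 2-oxidase GA2OX8 were at the other end. GA3OX1, which forms bioactive gibberellin, had a mean of 0.739 FPKM (0 to 2.27), GA2OX8, which acts on C20 precursors, 0.434 FPKM (0.163 to 1.04), GA20OX1 0.119 FPKM and GA20OX2 0.00724 FPKM. GA20OX1 was listed at 0 in 6 libraries and GA20OX2 in 23 of 27.

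**Figure D1:**
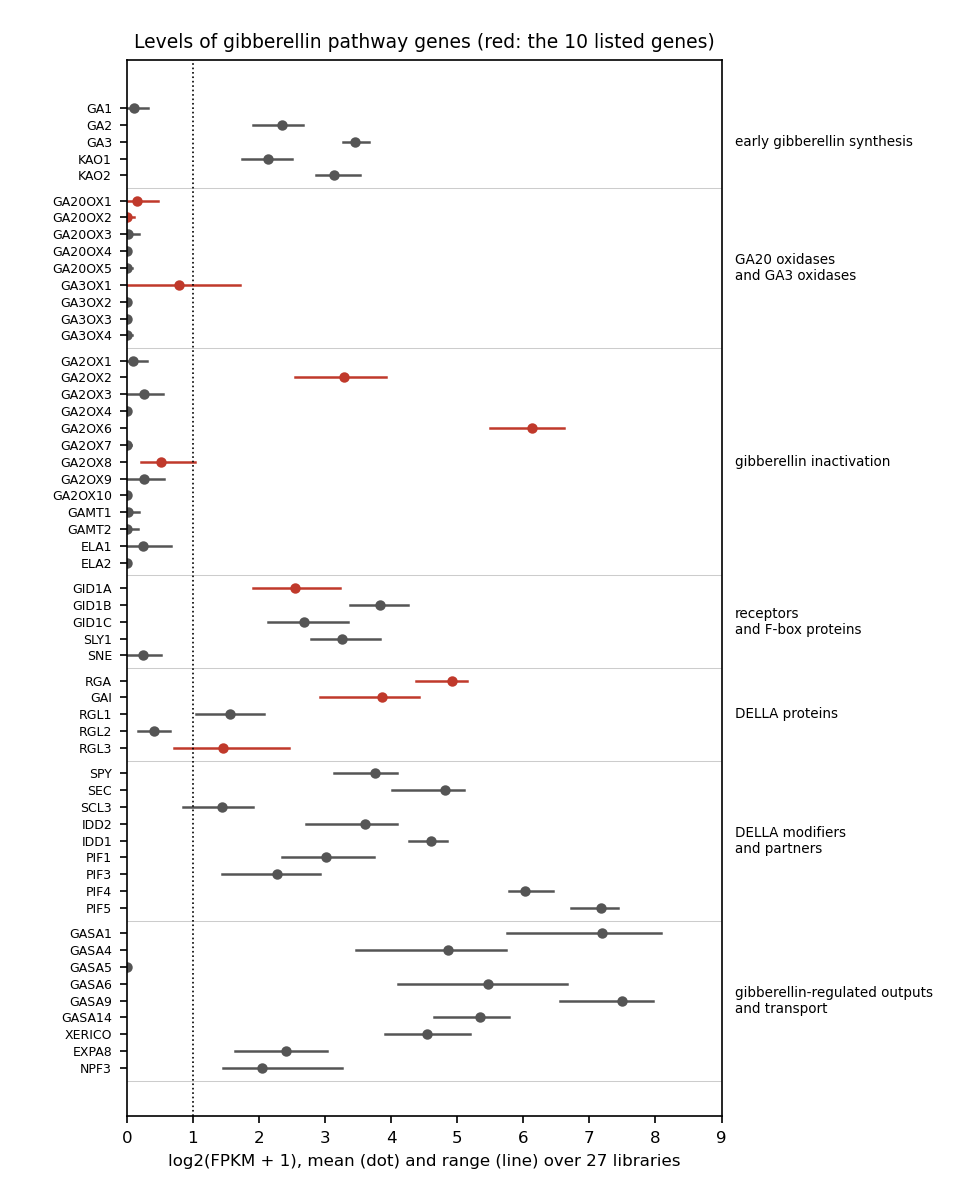
Levels of the 55 pathway genes looked up, as log2(FPKM + 1), with a dot at the mean and a line from the lowest to the highest of 27 libraries; red marks the 10 listed genes and the dotted line is 1 FPKM. GA2OX6 is the only inactivating enzyme that lies far to the right (mean 69.3 FPKM), and the means of all 9 GA20 and GA3 oxidases lie left of the dotted line.

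The other pathway genes were chosen by name from textbook knowledge, with earlier results of these data known. Among them the GA20 and GA3 oxidases were again low, but so were the other inactivating genes, and most early synthesis genes were not low. Of 5 genes of early synthesis, 4 were tested: GA3 (ent-kaurene oxidase) had 9.97 FPKM, KAO2 7.82 FPKM, GA2 4.10 FPKM and KAO1 3.397 FPKM, while GA1, the first committed enzyme, had 0.0810 FPKM. None of the 9 GA20 and GA3 oxidases reached a mean of 1 FPKM, and GA20OX4, GA3OX2 and GA3OX3 were listed at 0 in every library. Of 13 inactivating genes only GA2OX6 and GA2OX2 reached it. Among receptors, GID1B (13.3 FPKM) stood above GID1C (5.40 FPKM) and GID1A, and the F-box gene SLY1 had 8.59 FPKM. Of the DELLA genes, RGL1 had 1.95 FPKM and RGL2 0.328 FPKM. The plot of pathway levels shows these values for all 55 genes looked up, of which 31 were tested.

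The first question was what eATP or L-Glu on 1 leaf did to these genes in a distant leaf. For each of the 6 tested genes the difference from mock was taken on the log2(FPKM + 1) scale, which understates the change of low genes. By limma without a term for the replicate number, 0 of 6 were called in any of the 6 comparisons with mock. There 0% of all tested genes were called (adjusted p under 0.05 over 16577 genes). Before adjustment, p was under 0.05 for 2 of 6 after eATP in glr3.3glr3.6 (GA2OX6 and RGL3, beside 3.38% of all tested genes) and for 1 of 6 after L-Glu in that line (GA2OX6, beside 1.98%). In p2k1p2k2 it was so for 1 of 6 after eATP (GA2OX6, beside 1.79%) and 1 of 6 after L-Glu (RGL3, beside 1.72%). In Col-0 the count was 0 of 6 after eATP (2.64%) and 0 of 6 after L-Glu (0.881%).

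GA2OX6, whose enzyme inactivates bioactive gibberellin, lay above all mock libraries in every treated library labelled glr3.3glr3.6. It had 82.1, 65.8 and 92.5 FPKM after eATP and 94.8, 67.9 and 97.1 FPKM after L-Glu, against 63.9, 44.1 and 49.2 FPKM in mock. Both treated groups lay wholly above the mock group, and RGL3 was the other gene of the 6 to do so in both. The margin of RGL3 after L-Glu was slim, with 1.80 FPKM in its lowest treated library and 1.78 FPKM in the highest of mock. The 2 of 6 for eATP stand beside 4.43% of all tested genes whose groups did not overlap in that direction (6.78% in either), and the 2 of 6 for L-Glu beside 2.96% (5.53% in either).

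The GA2OX6 difference was 0.61 ± 0.16 (log2, SE) for eATP and 0.71 ± 0.16 for L-Glu, both with an adjusted p of 1 under limma. Replicate numbers paired the libraries of the L-Glu comparison, with same-number correlations of 0.284 to 0.401, and limma with a term for each number of a genotype gave an adjusted p of 0.0398. GA2OX6 was the single gene so called there, which is 0.00603% of those tested. With 1 term for each number across genotypes its adjusted p was 0.0884, and no gene was called. By number the L-Glu differences were 0.56, 0.61 and 0.97. With library weights the L-Glu difference was 0.90, with an adjusted p of 0.014. For eATP, limma with a term for each number of a genotype also called GA2OX6, and with 1 term across genotypes it did not. The adjusted p and the number of genes called are given in the closing section. The same-number correlations for eATP were 0.353, 0.360 and 0.0762, so the numbers were not taken to pair those libraries.

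Epidermis and trichome markers had values opposite in direction to GA2OX6 in this line. Their summed level was 737 to 842 FPKM after eATP and 791 to 875 FPKM after L-Glu, against 904 to 1008 FPKM in mock. All 5 tested markers of the 7 listed were lower, with median differences of -0.23 for eATP and -0.19 for L-Glu, and 0 of them were called. In p2k1p2k2, where GA2OX6 was lower, the sums were 896 to 1329 FPKM after eATP and 837 to 1201 FPKM after L-Glu, against 783 to 1117 FPKM in mock, and all 5 were higher. In Col-0 they were 675 to 868 FPKM after eATP and 836 to 876 FPKM after L-Glu, against 701 to 828 FPKM in mock. Other leaf lists shifted as well. In glr3.3glr3.6, 4 of 4 mesophyll markers were lower after each treatment. Of 6 tested vasculature markers, 4 were lower after eATP and 6 after L-Glu, and of 5 guard cell markers, 3 and 4. In p2k1p2k2, 4 of 5 guard cell markers were higher after each treatment. Mesophyll markers there were higher for 1 of 4 after eATP and 3 of 4 after L-Glu, and vasculature markers for 5 of 6 and 2 of 6. The part of any of these markers in the GA2OX6 result was not tested.

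In the libraries labelled p2k1p2k2 the values of GA2OX6 ran the other way. There GA2OX6 had 66.0, 49.9 and 52.8 FPKM after eATP and 68.4, 56.8 and 63.9 FPKM after L-Glu, against 92.0, 73.6 and 65.3 FPKM in mock. The eATP and mock groups overlapped by the margin between 66.0 and 65.3 FPKM. The difference was -0.44 ± 0.16 for eATP and -0.27 ± 0.16 for L-Glu, both with an adjusted p of 1 under limma. Non-overlapping groups made up 5.94% of all tested genes for eATP and 5.69% for L-Glu, and 0 of the 6 genes were among them.

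In Col-0, GA2OX6 had 78.6, 79.3 and 77.5 FPKM after eATP and 68.6, 57.3 and 69.7 FPKM after L-Glu, against 66.6, 65.3 and 61.8 FPKM in mock. The eATP group lay above the mock group, and the L-Glu group spanned it. The difference was 0.28 ± 0.16 for eATP and 0.01 ± 0.16 for L-Glu, both with an adjusted p of 1 under limma. GA2OX6 was the 1 of 6 genes whose eATP and mock groups did not overlap in Col-0, beside 1.41% of all tested genes in that direction (4.68% in either). For L-Glu it was 0 of 6, beside 4.46% in either direction. When eATP was set against L-Glu in Col-0, GA2OX6 was again the 1 of 6 without overlap (0.27 ± 0.16, adjusted p = 0.867, limma), beside 1.85% in that direction. Between eATP and L-Glu 0 of 6 genes were called in each of the 3 genotypes, beside 0% of all tested genes. Over all 3 genotypes GA2OX6 differed from mock by 0.15 ± 0.09 for eATP and by 0.15 ± 0.09 for L-Glu (adjusted p = 1 each, limma), and again 0 of 6 genes and 0% of all tested genes were called.

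**Figure D2:**
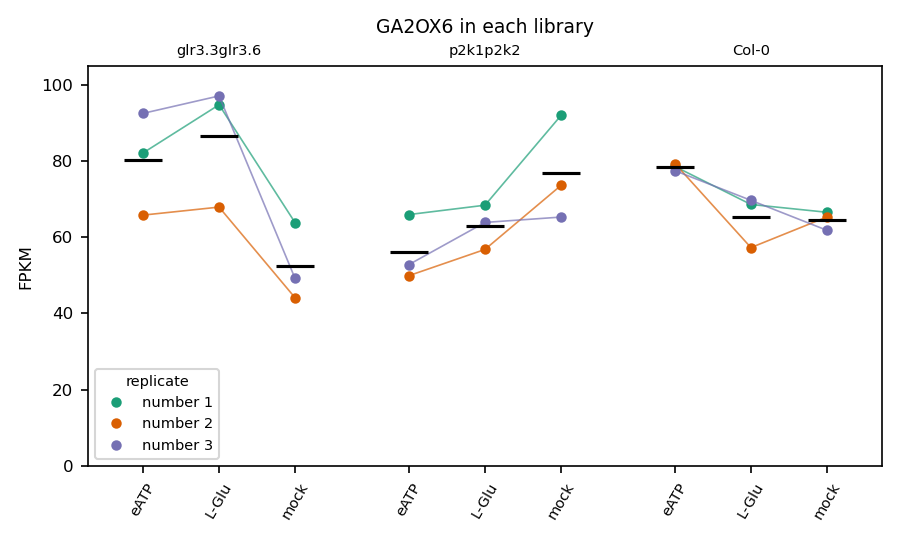
FPKM of GA2OX6 in each of the 27 libraries, with genotypes side by side and treatments left of mock; colours and lines join libraries with the same replicate number, and black bars are group means. In glr3.3glr3.6 all 6 treated libraries (65.8 to 97.1 FPKM) lie above the 3 mock libraries (44.1 to 63.9 FPKM), and in p2k1p2k2 mock has the highest mean.

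Ordered by group mean, GA2OX6 was highest in glr3.3glr3.6 after L-Glu (86.6 ± 16.2 FPKM, SD, n = 3) and after eATP (80.2 ± 13.5 FPKM). Col-0 after eATP (78.5 ± 0.939 FPKM) and p2k1p2k2 mock (77.0 ± 13.6 FPKM) followed. The middle of the order was Col-0 after L-Glu (65.2 ± 6.87 FPKM), Col-0 mock (64.6 ± 2.46 FPKM) and p2k1p2k2 after L-Glu (63.0 ± 5.85 FPKM). At the low end stood p2k1p2k2 after eATP (56.2 ± 8.54 FPKM) and glr3.3glr3.6 mock (52.4 ± 10.2 FPKM). Every pair of neighbours in this order overlapped. The mock groups of the mutants lay on either side of Col-0 mock, with a difference of -0.31 ± 0.16 for glr3.3glr3.6 mock and 0.24 ± 0.16 for p2k1p2k2 mock, each with an adjusted p of 1 under limma.

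The responses were then set against each other. For eATP, the response of GA2OX6 in p2k1p2k2 minus that in Col-0 was -0.72 ± 0.23 (adjusted p = 1, limma). The L-Glu response in glr3.3glr3.6 minus that in Col-0 was 0.70 ± 0.23 (adjusted p = 1, limma). Set directly against each other, a comparison added after the data were seen, the mutants' responses to eATP differed by 1.05 ± 0.23 (adjusted p = 0.898, limma) and to L-Glu by 0.99 ± 0.23 (adjusted p = 0.77), glr3.3glr3.6 minus p2k1p2k2. In these 6 response comparisons 0 of 6 genes were called, as were 0% of all tested genes, by limma without a term for the replicate number. With a term for each number of a genotype, limma called GA2OX6 between the mutants' responses to eATP and to L-Glu. With 1 term for each number across genotypes it did so for eATP alone. The adjusted p are given in the closing section. The lowest same-number correlations, 0.0442 for eATP and 0.0983 for L-Glu, were under the 0.1 set for pairing. All 27 libraries still correlated best with their own number. By number, the differences between the mutants' responses of GA2OX6 were 0.83, 1.12 and 1.198 for eATP and 0.98, 0.98 and 1.00 for L-Glu. With library weights the eATP value was 1.16, with an adjusted p of 0.03. The responses to eATP and to L-Glu share their mock libraries.

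GA2OX2, the other 2-oxidase tested, overlapped its mock in all 6 comparisons. It had 9.50, 13.8 and 7.69 FPKM after eATP and 6.28, 12.5 and 6.02 FPKM after L-Glu in glr3.3glr3.6, against 8.90, 12.1 and 5.63 FPKM in mock. In p2k1p2k2 it had 4.84, 11.4 and 5.02 FPKM after eATP and 7.26, 14.2 and 7.69 FPKM after L-Glu, against 7.72, 13.2 and 6.08 FPKM in mock. In Col-0 it had 11.1, 9.31 and 7.46 FPKM after eATP and 7.85, 9.48 and 7.03 FPKM after L-Glu, against 5.96, 12.3 and 7.34 FPKM in mock. The differences of GA2OX2 from mock lay between -0.34 ± 0.35 (eATP in p2k1p2k2) and 0.22 ± 0.35 (eATP in glr3.3glr3.6). In both mutants replicate 2 was the highest of its group in all 3 treatments.

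RGL3, a DELLA gene known to be induced by jasmonate, had the same directions as GA2OX6 in both mutants. In glr3.3glr3.6 it had 1.97, 2.33 and 2.74 FPKM after eATP and 1.85, 1.80 and 2.18 FPKM after L-Glu, against 1.21, 0.639 and 1.78 FPKM in mock. In p2k1p2k2 it had 2.15, 1.41 and 1.09 FPKM after eATP and 1.58, 1.47 and 1.32 FPKM after L-Glu, against 4.51, 2.98 and 1.28 FPKM in mock. The treated groups lay above mock in glr3.3glr3.6, and in p2k1p2k2 the mock group alone held values above 2.15 FPKM. Its differences were 0.63 ± 0.26 for eATP and 0.45 ± 0.26 for L-Glu in glr3.3glr3.6. In p2k1p2k2 they were -0.55 ± 0.26 for eATP and -0.58 ± 0.26 for L-Glu, and all 4 had an adjusted p of 1 under limma. In Col-0, RGL3 had 1.191, 2.22 and 1.82 FPKM after eATP and 0.742, 1.303 and 1.497 FPKM after L-Glu, against 1.15, 1.97 and 0.831 FPKM in mock, with overlap in both.

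RGA and GAI, the abundant DELLA genes, showed no difference from mock that passed the test. In glr3.3glr3.6, RGA had 19.7, 28.8 and 31.1 FPKM after eATP and 23.5, 29.2 and 32.1 FPKM after L-Glu, against 27.7, 29.7 and 33.8 FPKM in mock. In p2k1p2k2 its group means were 29.3 and 31.5 FPKM after eATP and L-Glu, against 29.6 FPKM in mock, and in Col-0 27.7 and 29.8 FPKM, against 29.7 FPKM. All RGA groups overlapped their mock, with differences from -0.21 ± 0.17 (eATP in glr3.3glr3.6) to 0.10 ± 0.17 (L-Glu in p2k1p2k2). GAI group means ran from 11.05 FPKM (Col-0 after eATP) to 15.2 FPKM (p2k1p2k2 after L-Glu), with an SD of 3.70 to 5.74 FPKM inside groups. Its differences from mock lay between -0.20 ± 0.41 (eATP in Col-0) and 0.17 ± 0.41 (L-Glu in p2k1p2k2), so none exceeded its SE. By number they were -0.19, -0.35 and -0.04 for the first and 0.46, -0.06 and 0.11 for the second. Replicate 1 was the lowest of every group.

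GID1A, one of the 3 receptor genes, had 5.36, 5.78 and 6.97 FPKM after eATP in p2k1p2k2, against 2.78, 4.86 and 5.73 FPKM in mock. The groups overlapped, and the difference was 0.40 ± 0.26 (adjusted p = 1, limma), which was the furthest from 0 of its 6 differences from mock. In glr3.3glr3.6 mock, replicate 3 reached 8.33 FPKM, above the other 26 libraries.

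**Figure D3:**
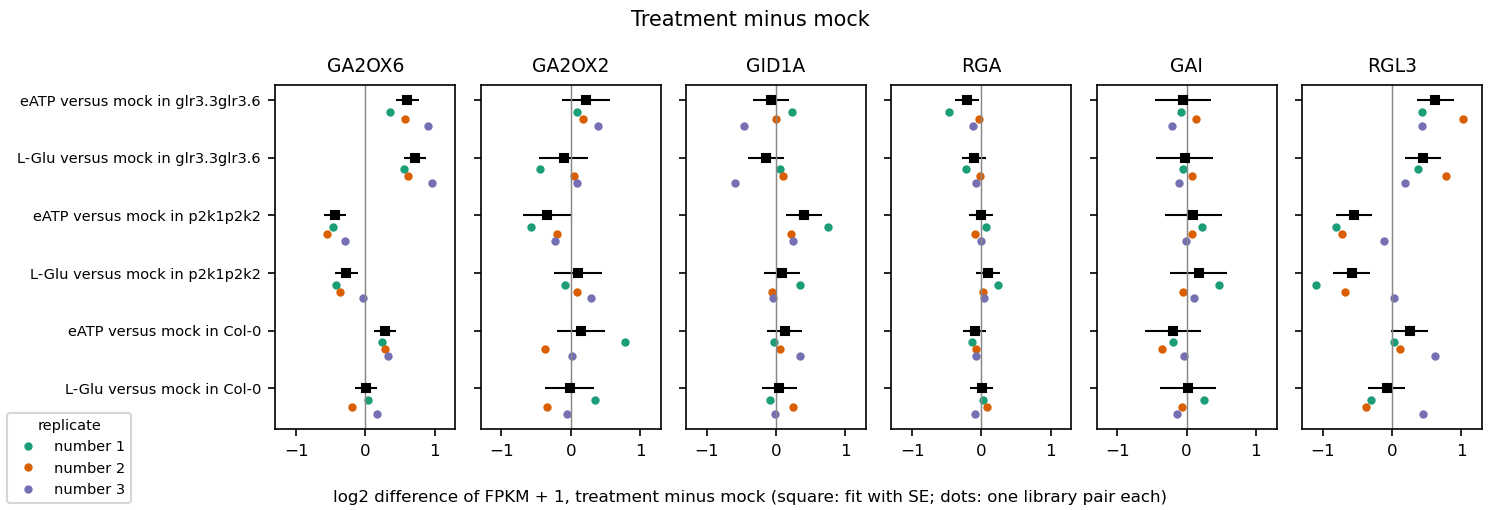
Differences from mock on the log2(FPKM + 1) scale for the 6 tested genes and 6 comparisons; squares with bars are the limma estimate and its SE, and coloured dots are differences between libraries with the same replicate number. The squares of GA2OX6 and RGL3 lie right of 0 in glr3.3glr3.6 and left of it in p2k1p2k2, while those of RGA and GAI stay within 0.21 of 0.

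None of the 4 low genes was called against mock in a fit with no filter on low values, and before adjustment p was under 0.05 for 1 of 4 in 1 of the 6 comparisons. That gene was GA20OX1 for eATP in glr3.3glr3.6, beside 4.08% of all 25291 genes then fitted, with 0.389, 0.248 and 0.0903 FPKM after eATP, against 0.0450, 0 and 0.123 FPKM in mock. GA3OX1 had 0.165, 0.773 and 0.761 FPKM after eATP in glr3.3glr3.6 and 0.469, 0.923 and 1.01 FPKM after L-Glu, against 0.295, 1.21 and 2.27 FPKM in mock. In p2k1p2k2 it had 0.494, 2.18 and 0.357 FPKM after eATP and 0.474, 1.04 and 0.212 FPKM after L-Glu, against 0.147, 1.503 and 0.316 FPKM in mock. In Col-0 it was listed at 0 in 1 eATP library and was otherwise between 0.323 and 1.31 FPKM. The GA3OX1 groups overlapped in all 6 comparisons. GA2OX8 had its highest group mean in Col-0 after eATP (0.764 ± 0.254 FPKM, SD, n = 3), against 0.446 ± 0.237 FPKM in Col-0 mock, and the groups overlapped. After L-Glu it had 0.335 ± 0.154 FPKM in Col-0, and its eATP libraries (0.532 to 1.04 FPKM) lay above the L-Glu libraries (0.163 to 0.459 FPKM), a difference of 0.40 ± 0.17 without the filter (adjusted p = 0.813, limma). Before adjustment p was under 0.05 there for 1 of the 4 low genes, GA2OX8, beside 6.12% of all 25291 genes. Among genes that passed the filter, 1.85% did not overlap in that direction. GA20OX1 stayed at or below 0.389 FPKM and GA20OX2 at or below 0.0753 FPKM in all libraries.

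**Figure D4:**
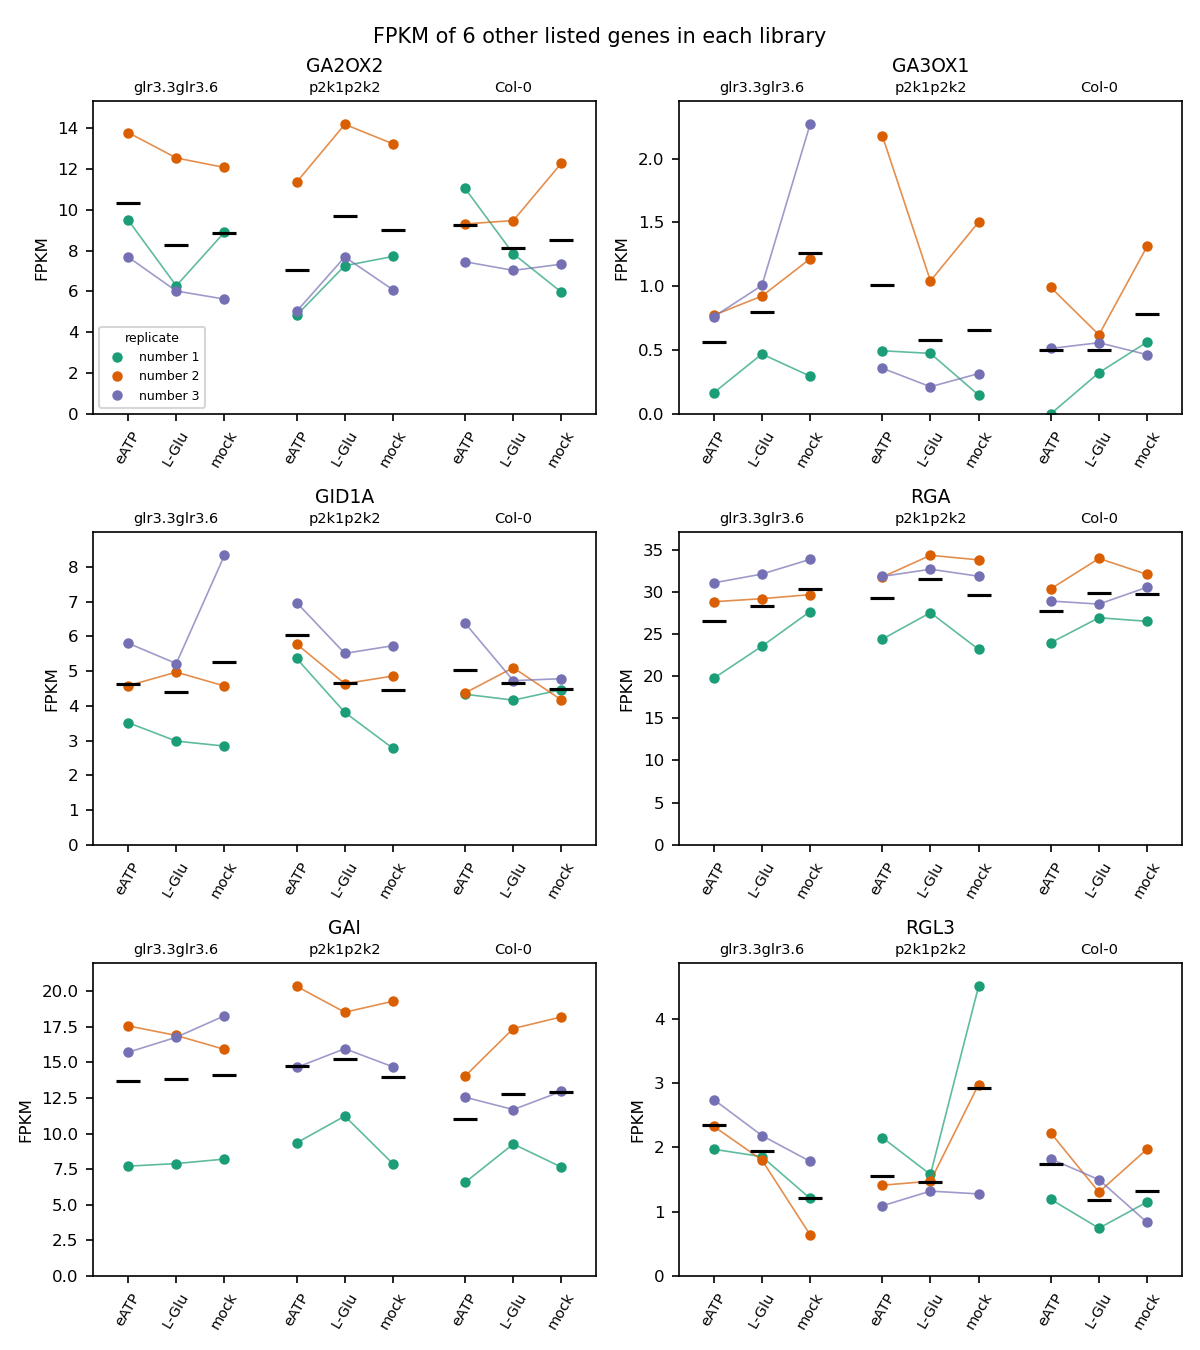
FPKM of GA2OX2, GA3OX1, GID1A, RGA, GAI and RGL3 in each library, drawn as for GA2OX6, with an axis of its own for each gene. In GAI and RGA the line of replicate number 1 lies lowest in all 3 genotypes, and in RGL3 the p2k1p2k2 mock library of number 1 (4.51 FPKM) is the highest.

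The second question was whether the lines differed from Col-0 without regard to treatment. By limma without a term for the replicate number, 0 of the 6 genes were called between mutant mock and Col-0 mock. This stood beside 0.0483% of all tested genes for glr3.3glr3.6 and 0.0362% for p2k1p2k2. Over the 3 treatments it was also 0 of 6, beside 0.151% and 0.109%. Before adjustment, p was under 0.05 for 1 of 6 in p2k1p2k2 mock (2.18% of all genes) and for 0 of 6 in glr3.3glr3.6 mock (2.16%) and over the treatments (7.09% for glr3.3glr3.6, 13.2% for p2k1p2k2). The 1 gene was RGL3. It had 4.51, 2.98 and 1.28 FPKM in p2k1p2k2 mock, against 1.15, 1.97 and 0.831 FPKM in Col-0 mock. The groups overlapped, and the difference was 0.70 ± 0.26 (adjusted p = 1, limma). GAI had 14.7 ± 4.42 FPKM in p2k1p2k2, against 12.3 ± 4.005 FPKM in Col-0 (SD, n = 9), a difference of 0.25 ± 0.24 (adjusted p = 0.712, limma), and by number 0.25, 0.22 and 0.26. With a term for the number, within genotypes or across them, limma called GAI in this comparison. The adjusted p and the share of all tested genes called are given in the closing section. The lowest same-number correlation there was 0.0369, so the numbers were not taken to pair these libraries. RGA had 30.1 ± 4.09 FPKM in p2k1p2k2, against 29.1 ± 3.04 FPKM in Col-0 (SD, n = 9), a difference of 0.04 ± 0.10 (adjusted p = 0.902, limma).

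Libraries differed far more by their replicate number than by treatment, and the DELLA genes RGA and GAI had their lowest levels under 1 number. The labels do not say what libraries with the same number share. The p-values for numbers treat libraries of 1 number as independent. They measure the spread between libraries and not whether a difference between numbers would recur. With group and number in the fit, 5 of the 6 genes were called between number 1 and numbers 2 and 3, beside 53.2% of all tested genes, and 2 of 6 between numbers 2 and 3, beside 26.4%. GAI had a median of 7.89 FPKM (6.57 to 11.2) in number 1, against 17.6 FPKM (14.0 to 20.3) in number 2 and 14.7 FPKM (11.7 to 18.3) in number 3. No number 1 library of GAI reached any other, as for 1.14% of all tested genes in that direction. The difference of GAI, number 1 minus the others, was -0.87 ± 0.06 (adjusted p = 9.34e-09, limma), and within single genotypes it was -0.998 in glr3.3glr3.6, -0.80 in p2k1p2k2 and -0.80 in Col-0.

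RGA had a median of 24.4 FPKM (19.7 to 27.7) in number 1, against 31.7 FPKM (28.8 to 34.3) in number 2 and 31.8 FPKM (28.5 to 33.8) in number 3. Here too no number 1 library reached the others, and the difference was -0.33 ± 0.04 (adjusted p = 5.27e-06, limma). GID1A fell by 0.41 ± 0.08 (adjusted p = 0.000361) and GA2OX2 by 0.22 ± 0.09 (adjusted p = 0.0452), with overlap between numbers. GA2OX6 rose by 0.21 ± 0.06 (adjusted p = 0.00667), at a median of 68.6 FPKM in number 1, against 65.3 FPKM in each other number. RGL3 differed by 0.02 ± 0.13 (adjusted p = 0.922). Fitted without the filter, GA3OX1 fell by 0.51 ± 0.13 in number 1 (adjusted p = 0.00467).

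GA2OX2 differed between numbers 2 and 3. It had a median of 12.3 FPKM (9.31 to 14.2) in number 2, against 7.03 FPKM (5.02 to 7.69) in number 3. Numbers 2 and 3 did not overlap, as for 1.11% of all tested genes in that direction, whereas number 1 (4.84 to 11.1 FPKM) reached into both. The difference, number 2 minus number 3, was 0.77 ± 0.10 (adjusted p = 2.85e-05, limma). GAI was the other gene called there, at 0.24 ± 0.07 (adjusted p = 0.0196). In Col-0 alone, 1 of the 6 genes was called for number 1, beside 3.26% of all tested genes, and 0 of 6 for number 2 against 3, beside 0%, where GA2OX2 differed by 0.45 ± 0.21 (adjusted p = 0.389).

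**Figure D5:**
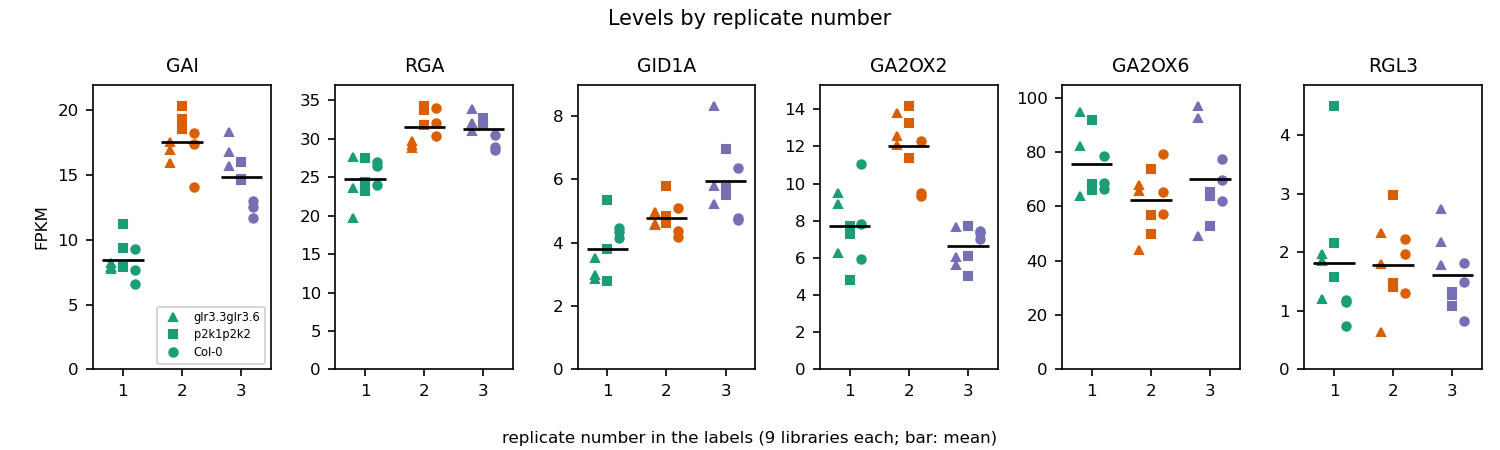
FPKM of the 6 tested genes by the replicate number in the labels, 9 libraries each, with a shape for each genotype and a bar at the mean. GAI and RGA have their 9 lowest libraries in number 1, and GA2OX2 is higher in number 2 (9.31 to 14.2 FPKM) than in number 3 (5.02 to 7.69 FPKM).

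Of the 31 tested pathway genes, 4 were called higher and 15 lower in number 1, beside 18.5% and 34.7% of all tested genes, with a median difference of -0.15, against -0.07 over all tested genes. Among DELLA genes RGL1 fell by 0.47 ± 0.09 (adjusted p = 0.000195), which made 3 of 4 tested. Among modifiers and partners of DELLA proteins, 4 of 9 fell and 0 rose: PIF3 by 0.83 ± 0.08, IDD2 by 0.52 ± 0.06, SPY by 0.38 ± 0.05 and PIF1 by 0.34 ± 0.06. PIF1 and PIF3 encode transcription factors that DELLA proteins bind, and SPY encodes an enzyme that adds O-fucose to DELLA proteins. Among 8 tested genes of gibberellin-regulated outputs and transport, 2 fell and 2 rose. GASA4 fell by 0.98 ± 0.11 and GASA14 by 0.41 ± 0.08, whereas GASA1 rose by 0.62 ± 0.09 and GASA9 by 0.40 ± 0.09. Of the receptors, GID1C fell by 0.30 ± 0.08 and GID1B rose by 0.20 ± 0.08 (adjusted p = 0.0309). GID1B encodes a receptor of the same family as GID1A, and the 3 receptor genes thus did not share a direction. Of early synthesis, GA2, KAO1 and KAO2 fell.

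Markers of leaf state and cell type were also called, beside the same 53.2% of all tested genes. Senescence markers summed to 27.3 to 92.2 FPKM in number 1, against 11.3 to 17.2 FPKM in number 2 and 19.2 to 23.7 FPKM in number 3, and 2 of 3 tested were called, with a median difference of 0.53. The sum of 92.2 FPKM was that of p2k1p2k2 eATP replicate 1, where the marker SAG13 alone had 73.4 FPKM. The marker ORE1 did not follow the sums, with 1.59 to 4.66 FPKM in number 1 and 1.95 to 6.75 FPKM in number 3. SAG12, a protease gene that defines senescence among the 4 listed, was listed at 0 in every library. Guard cell markers summed to 17.2 to 23.1 FPKM in number 1, against 24.2 to 34.99 FPKM in number 2 and 21.2 to 26.4 FPKM in number 3, and 3 of 5 were called. Called markers also numbered 3 of 4 tested for mesophyll, 3 of 5 for epidermis and trichomes and 4 of 6 for vasculature. The part of these markers in the DELLA differences was not tested.

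Against mock, 0 of the 31 tested pathway genes were called in the 6 comparisons by limma without a term for the replicate number. Before adjustment, p was under 0.05 for between 0 and 3 of them. For eATP in Col-0 all 9 modifiers and partners of DELLA proteins had values below mock, with a median difference of -0.26, against -0.03 over all tested genes. Without Col-0 eATP replicate 3, chosen after seeing the data, 7 of 9 were below mock and the median was -0.14. By number, 8 of 9 were below mock in number 1, 3 of 9 in number 2 and 9 of 9 in number 3. SCL3, a GRAS protein that acts against DELLA proteins, had the smallest p among the 9 there, at -0.40 ± 0.20 (adjusted p = 1, limma). The medians of the 9 were -0.13 for eATP and -0.03 for L-Glu in glr3.3glr3.6, 0.04 and -0.07 in p2k1p2k2, and 0.07 for L-Glu in Col-0. PIF4 in p2k1p2k2 after eATP differed by 0.28 ± 0.11 (adjusted p = 1, limma), with 76.05, 68.4 and 68.3 FPKM, against 55.4, 60.3 and 59.3 FPKM in mock.

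GID1B, the most abundant receptor gene, had 15.6, 15.1 and 16.2 FPKM after L-Glu in glr3.3glr3.6, against 13.3, 9.74 and 11.4 FPKM in mock. The groups did not overlap, and the difference was 0.43 ± 0.18 (adjusted p = 1, limma). NPF3, a gibberellin transporter, had 8.59, 5.10 and 3.35 FPKM after eATP in p2k1p2k2, against 3.17, 2.31 and 1.74 FPKM in mock, a difference of 0.92 ± 0.30 (adjusted p = 1, limma). EXPA8, an expansin gene, differed by 0.57 ± 0.21 for L-Glu in Col-0 (adjusted p = 1, limma). Of early synthesis, GA3 and KAO1 had the smallest p, both for L-Glu in Col-0, at -0.19 ± 0.10 and 0.26 ± 0.14 (adjusted p = 1 each, limma).

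The genes whose pattern over the 27 libraries was most like each of the 6 were taken by Pearson r of log2(FPKM + 1), as a description, since all points share library and replicate number. GAI lay closest to AT1G29470 (r = 0.953) and MLP423 (r = 0.940), and RGA to AT1G29470 (r = 0.908) and MLP28 (r = 0.907). RGA and GAI had r = 0.873 with each other, and r = 0.657 once group and number means were removed. GA2OX6 lay closest to SKIP2 (r = 0.788) and NAC102 (r = 0.780), and with group means removed to AT5G17000 (r = 0.850) and ABR1 (r = 0.845). GA2OX6 and RGL3 had r = 0.608, and r = 0.714 without group and number means. RGL3 lay closest to AT4G24350 (r = 0.771) and AOS (r = 0.758), an enzyme of jasmonate synthesis. GA2OX2 lay closest to PPa6 (r = 0.836) and PPD5 (r = 0.834), and GID1A to AT2G39630 (r = 0.855) and AGL31 (r = 0.838). With group means removed, GAI lay closest to AT1G29470 (r = 0.974) and PSL4 (r = 0.970), RGA to MLP28 (r = 0.954) and CHR17 (r = 0.935), and RGL3 to AT1G14330 (r = 0.785) and AOS (r = 0.759). GID1A then lay closest to CYP71 (r = 0.927) and RBL14 (r = 0.913), and GA2OX2 to FK (r = 0.924) and TIC21 (r = 0.911).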

How the data were processed

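The deposited FPKM of 27 libraries were made by the authors with Cufflinks 2.2.1, Cuffdiff 2.2.1, HISAT2 2.2.1, Trim Galore 0.6.7, SAMtools 1.19 and FastQC 0.11.9 on TAIR10, per the submitters' processing notes. Their order and settings, and any scaling between libraries, are not given in the sources used here. FPKM hold no counts, so depth is unknown and no counting interval or floor was computed. The gene table used for names is of another build label, so no coordinates are given, and sequences were not used here.

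Values were taken as log2(FPKM + 1), and the 16577 genes whose mean reached 1 FPKM were tested. The 9 group means were estimated together from the 27 libraries with limma 3.58.1 (R 4.3.3; 18 residual degrees of freedom, intensity trend, two-sided tests), p was adjusted by Benjamini-Hochberg over all genes of a comparison, and a gene was called under 0.05. Replicate numbers were tested as terms beside the group. The fit was tested on simulated data.

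The members and the gene lists were chosen with earlier results of these data known. The genes named are the 10 members, other pathway genes called in a fit, otherwise up to 2 per list with the smallest p, and the 2 genes most like each member. Numbers were taken to pair libraries where every same-number correlation of deviations from group means was over 0.1, which held in 9 of 21 comparisons, among them all 3 of L-Glu with mock. The alternatives were another pseudocount, other filters, quantile and median-of-ratios scaling, replicate blocks, library weights, a fit without the other groups, and leaving out each library. The 2 comparisons between the mutants' responses were chosen after seeing the data.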

Additional observations from a re-analysis of the deposited data

Results flagged for a closer look

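In each of these 7 results all 3 same-number differences from mock lay on 1 side in one genotype. In the second genotype all 3 lay on the other side. The 7 were picked by this rule from the tested genes in the response comparisons. No share of all tested genes that met the rule is given, so the count of 7 is not a result about these genes. None passed the test of the difference by limma without a term for the replicate number (adjusted p from 0.77 to 1 over 16577 genes). GA2OX6 did pass between the mutants' responses in some fits that had such a term or library weights, as given in the next section. The lowest same-number correlations of these comparisons were 0.0442 (eATP) and 0.0983 (L-Glu), so the numbers were not taken to pair their libraries. For the eATP response in p2k1p2k2 minus that in Col-0, GA2OX6 had -0.72 ± 0.23 and RGL3 had -0.81 ± 0.37 (log2, SE). For the eATP response in glr3.3glr3.6 minus that in p2k1p2k2, GA2OX6 had 1.05 ± 0.23, RGL3 1.18 ± 0.37 and GA2OX2 0.56 ± 0.50. For the L-Glu response in glr3.3glr3.6 minus that in p2k1p2k2, GA2OX6 had 0.99 ± 0.23 and RGA had -0.21 ± 0.24. The results of 1 genotype share its mock libraries.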

How the results depend on the processing

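Among the 6 tested genes the number called, 0 in every comparison of treatments, genotypes or responses, became 1 in 5 of them under some alternatives. With the replicate number as a block within genotype it was 1 for eATP and for L-Glu against mock in glr3.3glr3.6, 1 for both responses in glr3.3glr3.6 against p2k1p2k2 (GA2OX6 in all 4, adjusted p 0.038, 0.0398, 0.0082 and 0.0366, where 8, 1, 16 and 6 of all tested genes were called), and 1 for p2k1p2k2 against Col-0 over the treatments (GAI, adjusted p 0.0297, where 6.97% of all genes were called). With the block across genotypes it was 1 for the eATP responses (GA2OX6, adjusted p 0.0264) and 1 for p2k1p2k2 against Col-0 (GAI, adjusted p 0.046, 6.62% of all genes), while GA2OX6 had an adjusted p of 0.11 for eATP and 0.0884 for L-Glu in glr3.3glr3.6. Library weights gave 1 for L-Glu in glr3.3glr3.6 and 1 for the eATP responses (GA2OX6, adjusted p 0.014 and 0.03). The block changed no other call. Of the comparisons so changed, every same-number correlation was over 0.1 only for L-Glu in glr3.3glr3.6. The lowest was 0.0762 for eATP in that line, 0.0442 and 0.0983 for the eATP and L-Glu responses, and 0.0369 for p2k1p2k2 against Col-0. All 27 libraries still correlated best with their own number. Same-number pairs had a median r of 0.372 within a genotype and 0.335 between genotypes, against -0.154 for different numbers. Among other pathway genes the blocks called PIF1 in both mutants over the treatments and GASA1 in p2k1p2k2. For number 1 against 2 and 3 the count of 5 became 3 in glr3.3glr3.6 alone and 1 in Col-0 alone, where 2986 and 540 of all tested genes were called, against 8819 in the fit of all libraries, and for number 2 against 3 the count of 2 became 1 in glr3.3glr3.6, 1 in p2k1p2k2 and 0 in Col-0 alone, where 93, 1571 and 0 of all tested genes were called, against 4370; fewer libraries enter these fits. The pseudocount, filters, scalings, a fit without the other groups and leaving out any 1 library left the counts as they were, and no called value changed sign. Unknown depth limits what can be said of the 4 low genes.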
